A study of Mus musculus with 30 samples.

Results

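The ADAM genes encode membrane proteins with a metalloprotease and a disintegrin domain. All 32 rows whose symbol is Adam, a number and at most 1 letter were taken from a table of 20889 gene symbols, which leaves out the related Adamts genes. The table gives FPKM, fragments counted per length of transcript and depth of library, a length-corrected level that can be compared between genes. The members were sorted by what is known of their tissues into 19 genes of testis germ cells and sperm (the sperm set), 11 genes of somatic tissues, several of them widely expressed (the broad set), and 2 genes of the epididymis and immune cells, Adam7 and Adam28.

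RNA came from C57BL/6 testes taken on days 0, 7, 12 and 14 after birth (P0, P7, P12 and P14). Cells were enriched on magnetic beads for THY1, which marks undifferentiated spermatogonia, at all 4 ages, and for KIT, the receptor of differentiating spermatogonia, at P7, P12 and P14. Fluorescence sorting of cells from reporter mice gave P0 OCT4-GFP, P7 OCT4-GFP (labelled Oct4) and P7 ID4-GFP (labelled Id4), and a last library carries the label P7 VASA THY1, but VASA-GFP cells are mentioned in the protocol for P0 alone, so its age is uncertain. Of the 11 columns, 5 stand for 2 libraries (both P12 columns, P7 KIT, and THY1 at P7 and at P0) and the other 6 for 1. No treatment or mutant is labelled, and every group consists of selected cells and not of a pure cell type.

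Each column holds 1 value for a gene. No spread between replicates can be given, differences were not tested, and each value holds for these libraries only. The file gives no read depth. At values under 0.05 FPKM the steps between values were 0.957 to 2.04 times those of P14 THY1 in 9 columns and 3.72 times in P7 THY1, where 14.8% of 237 genes lay at that ratio; larger steps mean fewer fragments behind a low value. Markers of other testis cells differed between columns: the median of 8 fibroblast markers ran from 1.62 FPKM in P7 ID4-GFP to 603 FPKM in P0 THY1. All 8 spermatogonia markers were above 0 in every column, with medians from 17.0 FPKM in P0 THY1 to 76.9 FPKM in P7 OCT4-GFP. These are bulk samples, in which fewer cells of a type and less RNA per cell cannot be told apart.

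ADAM proteins with an active protease domain cut other membrane proteins near the cell surface and release their outer parts. ADAM10 cuts Notch receptors, and ADAM17 releases TNF and ligands of the EGF receptor. Many sperm ADAM proteins lack an active protease and act in adhesion. ADAM1 and ADAM2 form the heterodimer fertilin, and mouse sperm that lack ADAM3 on their surface fail to pass from the uterus into the oviduct.

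The sperm set split by level into 7 genes with a high value in P14 THY1, 3 genes that were low there and highest at P12, and 9 genes near 0 in all columns. Adam2, Adam5, Adam32, Adam3, Adam1b, Adam30 and Adam18 made up the first group. Adam1a, Adam4 and Adam21 made up the second. Of the 9 sperm set members that reached 1 FPKM in any column, 7 were highest in P14 THY1. That was so for 14% of the 15458 genes that reached that level and for none of the 11 broad set members. Adam18, Adam1b, Adam3 and Adam30 reached 1 FPKM in P14 THY1 alone, so passing the filter fixed their highest column. The count of 7 of 9 is therefore in part a result of the filter. It also leaves out the sperm set members under 1 FPKM in every column.

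Adam1a and Adam1b, adjacent genes that each encode a form of the fertilin alpha chain, differed in whether P14 THY1 was their highest column. Adam1b encodes the form found on sperm and Adam1a the form of the endoplasmic reticulum, which is needed for ADAM3 to reach the sperm surface. Adam1b stood at 0.0363 FPKM in P0 OCT4-GFP, 0.258 in P0 THY1, 0.0351 in P7 OCT4-GFP, 0.0247 in P7 ID4-GFP, 0 in P7 VASA THY1, 0.204 in P7 THY1, 0.0486 in P7 KIT, 0.0685 in P12 THY1, 0.292 in P12 KIT, 9.77 in P14 THY1 and 0.256 in P14 KIT. Adam1a stood at 0.371 FPKM in P0 OCT4-GFP, 1.47 in P0 THY1, 0.476 in P7 OCT4-GFP, 0.562 in P7 ID4-GFP, 0.181 in P7 VASA THY1, 1.38 in P7 THY1, 1.04 in P7 KIT, 1.99 in P12 THY1, 1.08 in P12 KIT, 0.264 in P14 THY1 and 0.409 in P14 KIT. Adam1a was above Adam1b in every column but P14 THY1, where Adam1b was above Adam1a. Reads of these related genes may have been split between them, so both levels carry that uncertainty.

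The bases before the starts of both genes are shown because the neighbours differed in P14 THY1. They are the 250 bases upstream of the RefSeq start, on the minus strand of GRCm38.p6, at chr5:121521696-121521945 for Adam1a and chr5:121503436-121503685 for Adam1b. Capitals mark CAGTT on either strand, the core of the site bound by MYB proteins.
Adam1a: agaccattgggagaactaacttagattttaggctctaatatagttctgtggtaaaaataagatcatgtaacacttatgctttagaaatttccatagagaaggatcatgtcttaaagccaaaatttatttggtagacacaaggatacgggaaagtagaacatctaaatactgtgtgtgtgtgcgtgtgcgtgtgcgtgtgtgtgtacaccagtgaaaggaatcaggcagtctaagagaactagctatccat
Adam1b: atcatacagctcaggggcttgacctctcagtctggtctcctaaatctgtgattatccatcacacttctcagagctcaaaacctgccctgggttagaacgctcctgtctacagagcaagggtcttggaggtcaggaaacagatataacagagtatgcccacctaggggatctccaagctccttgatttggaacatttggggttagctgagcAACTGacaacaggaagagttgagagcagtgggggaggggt

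In a global alignment, 48.2% of 272 aligned columns were identical between the 2 windows. Adam1b held 1 match to CAGTT, beginning 40 bases before the start, and Adam1a held none. CAGTT or its complement occurred in 39.1% of 27025 mouse windows of this length, so a match is common. The letters TGACG, the core of the cAMP response element, GTTGCC, the core of the RFX site, and TATAAA were in neither window and in 17.9%, 10.5% and 13% of all windows. A match is a description of the letters and does not show binding. RefSeq promoters were matched for 16 of the 32 members, and Adam1b was the only one of the 7 genes high in P14 THY1 among them.

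Adam2, which encodes the fertilin beta chain, had the second highest P14 THY1 value of the sperm set. It stood at 0.0553 FPKM in P0 OCT4-GFP, 0.214 in P0 THY1, 0.0562 in P7 OCT4-GFP, 0.00706 in P7 ID4-GFP, 0.0235 in P7 VASA THY1, 0 in P7 THY1, 0.0139 in P7 KIT, 0.609 in P12 THY1, 0.266 in P12 KIT, 120 in P14 THY1 and 4.09 in P14 KIT. P14 KIT was the second highest column for Adam2, above every column of P0, P7 and P12.

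Adam5, a testis gene of the same chromosomal run as Adam3, reached the highest value of the sperm set. It stood at 0.213 FPKM in P0 OCT4-GFP, 1.81 in P0 THY1, 0.109 in P7 OCT4-GFP, 0.0256 in P7 ID4-GFP, 0.0639 in P7 VASA THY1, 0.496 in P7 THY1, 0.157 in P7 KIT, 0.378 in P12 THY1, 0.431 in P12 KIT, 149 in P14 THY1 and 3.12 in P14 KIT. Adam32 stood at 0.362 FPKM in P0 OCT4-GFP, 1.10 in P0 THY1, 0.168 in P7 OCT4-GFP, 0.0961 in P7 ID4-GFP, 0.221 in P7 VASA THY1, 0.600 in P7 THY1, 0.186 in P7 KIT, 0.609 in P12 THY1, 0.405 in P12 KIT, 55.4 in P14 THY1 and 0.932 in P14 KIT. For both genes the P14 THY1 value was far above all others, and P0 THY1 was among the 3 highest columns.

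Adam3, which encodes cyritestin, stood at 0.324 FPKM in P0 OCT4-GFP, 0.922 in P0 THY1, 0.158 in P7 OCT4-GFP, 0.0265 in P7 ID4-GFP, 0 in P7 VASA THY1, 0.895 in P7 THY1, 0.0477 in P7 KIT, 0.0336 in P12 THY1, 0.0327 in P12 KIT, 15.6 in P14 THY1 and 0.352 in P14 KIT. Below P14 THY1 its next highest values were in P0 THY1 and P7 THY1, not in the P12 columns. The sum of 8 spermatid markers was also highest in P7 THY1, at 232 FPKM, against 4.78 to 23.2 FPKM in the other columns. Most of it came from Prm1 (100.9 FPKM), Tnp1 (55.02 FPKM), Tnp2 (37.71 FPKM) and Prm2 (29.68 FPKM). Odf1 and Akap4 were also highest there, at 3.58 and 3.61 FPKM. Acrv1 was at 0 in P7 THY1, and Spaca1 was lower there (1.16 FPKM) than in P0 THY1 (2.07 FPKM). In P0 THY1, where Adam3 stood at 0.922 FPKM, the markers summed to 16.5 FPKM. The part of spermatids in the P7 THY1 value of Adam3 was not tested.

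Adam18 and Adam30, both testis genes, had the lowest P14 THY1 values of the 7. Adam18 stood at 0.0301 FPKM in P0 OCT4-GFP, 0.323 in P0 THY1, 0.0262 in P7 OCT4-GFP, 0 in P7 ID4-GFP, P7 VASA THY1 and P7 THY1, 0.0151 in P7 KIT, 0.0319 in P12 THY1, 0.0285 in P12 KIT, 6.88 in P14 THY1 and 0.102 in P14 KIT. Adam30 stood at 0.647 FPKM in P0 OCT4-GFP, 0.560 in P0 THY1, 0.585 in P7 OCT4-GFP, 0.760 in P7 ID4-GFP, 0.153 in P7 VASA THY1, 0.756 in P7 THY1, 0.523 in P7 KIT, 0.421 in P12 THY1, 0.470 in P12 KIT, 9.47 in P14 THY1 and 0.446 in P14 KIT. Adam30 differed from the other 6 in its level before P14: it lay between 0.421 and 0.760 FPKM in 8 of the 9 columns of P0 to P12, and its P14 KIT value was within that range.

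**Figure D1:**
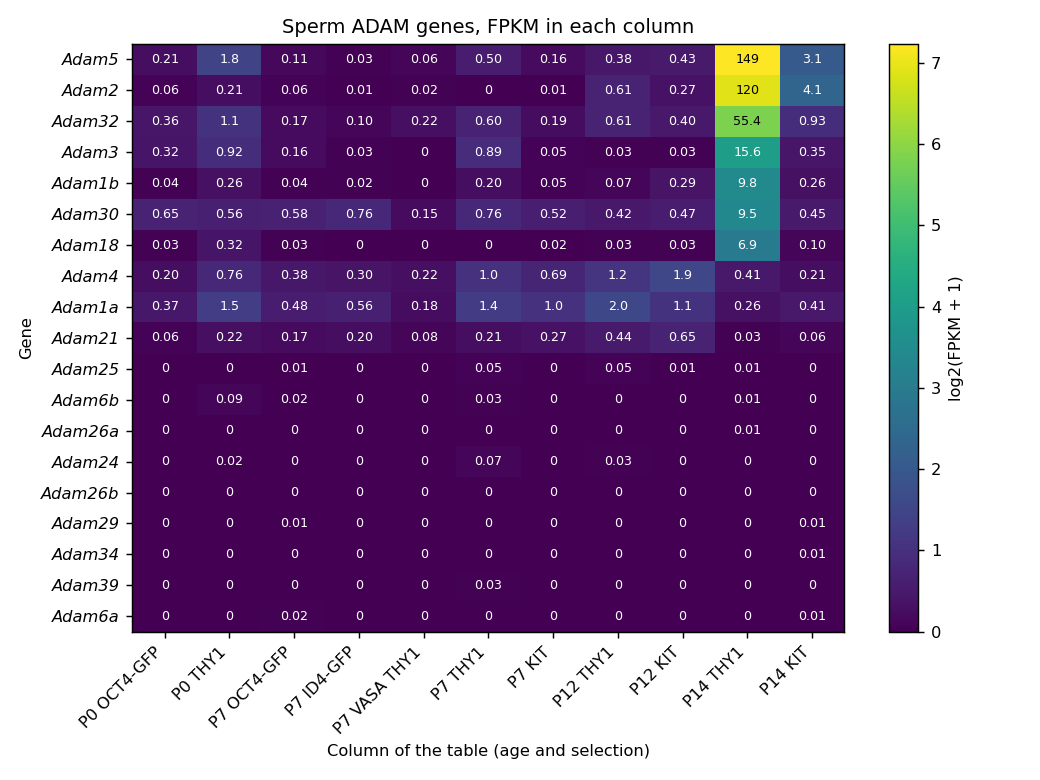
FPKM of the 19 sperm set members (rows) in the 11 columns of the table, with the value printed in each cell and the colour giving log2(FPKM + 1). The 7 upper genes stood between 6.88 and 149 FPKM in P14 THY1 and at 4.09 FPKM or less in every other column, and the 9 lowest genes were under 0.1 FPKM in all columns.

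The comparison of THY1 cells at P14 and P12 asks which genes differ with age in this selection. A gene was counted as different where FPKM + 1 differed 4-fold or more (2 on the log2 scale) and the higher column held 5 FPKM or more, a rule of size and not a test. By that rule 7 of 32 ADAM genes were higher at P14 and 0 were lower, against 3.35% higher and 2.79% lower of all 20889 genes. The differences of log2(FPKM + 1) were 6.77 for Adam5, 6.23 for Adam2, 5.13 for Adam32, 4.01 for Adam3, 3.33 for Adam1b, 2.93 for Adam18 and 2.88 for Adam30. These sizes depend on the pseudocount: with 0.1 in place of 1, all 7 passed and ran from 4.20 for Adam30 to 8.29 for Adam5, Adam18 moved to 5.73, Adam1b to 5.87 and Adam3 to 6.88, and Adam3 stood above Adam32 at 6.29. As plain ratios of FPKM, Adam2 was 197 times and Adam30 was 22.5 times as high at P14 as at P12. The median difference was 0.00 over all 19 sperm set members, -0.14 over the 11 broad set members and -0.01 over all genes.

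Between the selections at P14, with 1 library on each side, these 7 genes were lower in KIT than in THY1 cells and no ADAM gene was higher, against 3.16% lower and 0.201% higher of all genes. Both comparisons use the P14 THY1 library, so the shared members are not a second observation. The KIT minus THY1 differences of log2(FPKM + 1) ran from -5.19 for Adam5 to -2.84 for Adam18. With a pseudocount of 0.1 they ran from -5.75 for Adam32 to -4.13 for Adam30, and Adam18 moved to -5.11 and Adam1b to -4.79. With the pseudocount of 1 the medians were -0.01 over the sperm set, 0.45 over the broad set and 0.00 over all genes. The P14 KIT level was 1.48% of the P14 THY1 level for Adam18, 1.68% for Adam32, 2.09% for Adam5, 2.25% for Adam3, 2.63% for Adam1b, 3.41% for Adam2 and 4.71% for Adam30. P14 THY1 was above each of the other 10 columns by the size rule for these 7 genes and for 1.92% of all genes, which are 402 genes with a median P14 KIT share of 4.89%.

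Spermatocyte markers were high in the same column. All 10 were higher in P14 THY1 than in P12 THY1 and P14 KIT by the size rule, against 3.35% and 3.16% of all genes. They summed to 4148 FPKM against 55.5 and 182 FPKM, and none was at 0 in any column. Their P14 KIT levels ran from 2.26% of the P14 THY1 level for Ldhc, the germ cell lactate dehydrogenase gene, to 8.64% for Hspa2, a heat shock protein gene of spermatocytes. The 8 spermatid markers summed to 12.8 FPKM in P14 THY1, where 1 was at 0, and to 9.86 FPKM in P14 KIT. The part of spermatocytes in the 7 ADAM levels was not tested.

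**Figure D2:**
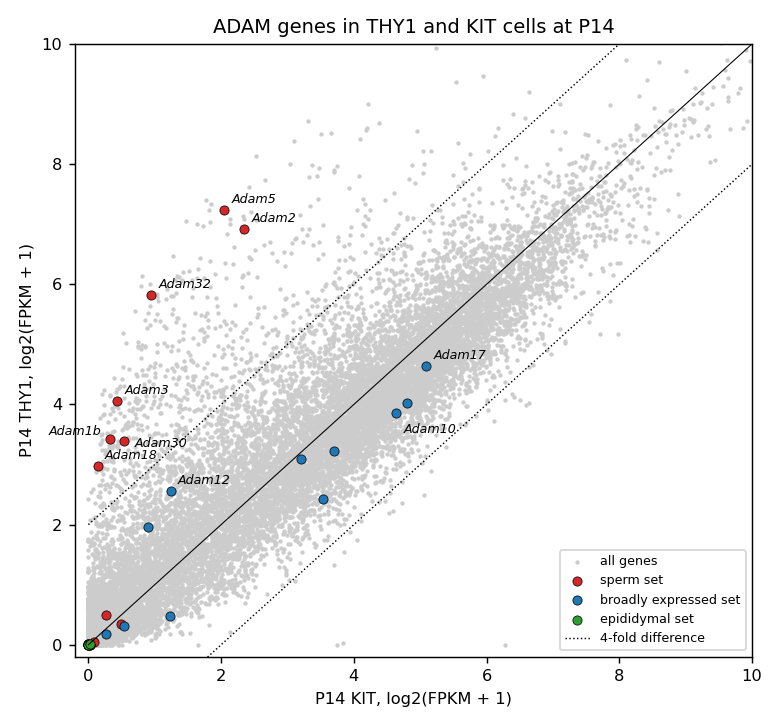
log2(FPKM + 1) in P14 KIT (x axis) and P14 THY1 (y axis) for all 20889 genes in grey and the ADAM genes in colour by set; the solid line marks equal values and the dotted lines a 4-fold difference. The 7 named sperm set members lie above the upper dotted line, and all members of the broad set lie between the dotted lines.

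The second group of the sperm set was lower in P14 THY1 than in P12 THY1 and lower in P14 KIT than in P12 KIT. Adam4, a testis gene whose protein is found with other sperm ADAM proteins, stood between 0.198 FPKM in P0 OCT4-GFP and 1.91 FPKM in P12 KIT, with 0.411 FPKM in P14 THY1. Adam21 stood between 0.0293 FPKM in P14 THY1, its lowest column, and 0.650 FPKM in P12 KIT. Adam1a, given above, was highest in P12 THY1. All 3 were below 2 FPKM in every column, so their differences rest on low values and none passed the size rule.

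The third group did not exceed 0.0877 FPKM, the value of Adam6b in P0 THY1. It comprised Adam6a and Adam6b, whose proteins associate with ADAM2 and ADAM3, and Adam24, Adam25, Adam26a, Adam26b, Adam29, Adam34 and Adam39. Adam26b was listed at 0 in all 11 columns, and Adam26a was above 0 only in P14 THY1, at 0.00694 FPKM. The pairs Adam6a with Adam6b and Adam26a with Adam26b are close copies whose reads can be split or lost in counting. RefSeq holds 2 more ADAM symbols that the table lists under older names, Adam20 and Adam34l, which lie outside the rule; their highest values were 0.0495 and 0.00939 FPKM.

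Part of the sperm set lies in runs of neighbouring ADAM genes, but Adam2, Adam30, Adam4, Adam21 and Adam29 lie in none. In the order of protein-coding genes of GRCm38.p6, Adam18, Adam3, Adam5, Adam32 and Adam9 are direct neighbours on chromosome 8. The first 4 of this run were all among the 7 genes high in P14 THY1, whereas Adam9, at its end, belongs to the broad set and had its lowest value there. Other runs on chromosome 8 hold Adam24, Adam25, Adam20 and Adam39, and Adam26b, Adam26a, Adam34l and Adam34. All of the 6 genes of these 2 runs that carry those symbols in the table were near 0. Adam6b and Adam6a are neighbours on chromosome 12 and were both near 0. Adam1b and Adam1a on chromosome 5 were the only run that joined members of the first and second group of the sperm set.

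In the broad set, Adam17, Adam10, Adam15 and Adam9 were at 5 FPKM or more in every column, as were 34% of all genes. Adam17 stood at 35.6 FPKM in P0 OCT4-GFP, 25.7 in P0 THY1, 35.2 in P7 OCT4-GFP, 44.9 in P7 ID4-GFP, 30.5 in P7 VASA THY1, 43.0 in P7 THY1, 35.4 in P7 KIT, 31.7 in P12 THY1, 33.9 in P12 KIT, 23.9 in P14 THY1 and 33.0 in P14 KIT. Its highest value was 1.87 times its lowest, the narrowest range of the set. It had the highest median level of all ADAM genes, 33.9 FPKM.

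Adam10, the main Notch receptor sheddase gene, stood at 18.2 FPKM in P0 OCT4-GFP, 27.8 in P0 THY1, 21.0 in P7 OCT4-GFP, 20.7 in P7 ID4-GFP, 26.8 in P7 VASA THY1, 26.7 in P7 THY1, 28.9 in P7 KIT, 42.3 in P12 THY1, 40.8 in P12 KIT, 13.4 in P14 THY1 and 23.9 in P14 KIT. Both P12 columns were above all others, and P14 THY1 was the lowest. Adam9, which encodes a widely expressed protease, stood at 15.1 FPKM in P0 OCT4-GFP, 21.5 in P0 THY1, 12.7 in P7 OCT4-GFP, 12.1 in P7 ID4-GFP, 8.48 in P7 VASA THY1, 28.1 in P7 THY1, 16.0 in P7 KIT, 28.9 in P12 THY1, 22.4 in P12 KIT, 8.40 in P14 THY1 and 12.0 in P14 KIT. From P12 to P14 in THY1 cells Adam10 differed by -1.58 and Adam9 by -1.67 on log2(FPKM + 1), less than the 4-fold bound. Sertoli markers were lower at P14 as well: 8 of 8 in the table passed the rule, against 2.79% of all genes. They summed to 449 FPKM in P12 THY1 and 14.4 FPKM in P14 THY1, and none was at 0. Their part in the Adam9 and Adam10 differences was not tested.

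Adam15 stood at 20.5 FPKM in P0 OCT4-GFP, 16.7 in P0 THY1, 21.7 in P7 OCT4-GFP, 22.4 in P7 ID4-GFP, 21.6 in P7 VASA THY1, 11.4 in P7 THY1, 22.5 in P7 KIT, 10.1 in P12 THY1, 15.4 in P12 KIT, 15.3 in P14 THY1 and 26.8 in P14 KIT. It was higher in KIT than in THY1 cells at P7, P12 and P14, by 0.92, 0.56 and 0.77 on log2(FPKM + 1). Of the broad set, 4 of 11 members (Adam8, Adam9, Adam10 and Adam17) had their lowest value in P14 THY1, against 15.4% of the 15458 genes that reached 1 FPKM.

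Adam22 and Adam23, brain genes whose proteins lack protease activity and bind secreted LGI proteins, were found in every column. Adam22 stood at 7.44 FPKM in P0 OCT4-GFP, 5.18 in P0 THY1, 5.74 in P7 OCT4-GFP, 5.32 in P7 ID4-GFP, 9.12 in P7 VASA THY1, 1.90 in P7 THY1, 6.35 in P7 KIT, 3.16 in P12 THY1, 6.80 in P12 KIT, 4.40 in P14 THY1 and 10.6 in P14 KIT. Like Adam15 it was higher in the KIT than in the THY1 column of each age, by 1.34, 0.91 and 1.11 on log2(FPKM + 1) at P7, P12 and P14. At P7 both genes were also higher in the ID4-GFP and VASA THY1 columns than in THY1. Adam15 differed by 0.91 and 0.86, and Adam22 by 1.12 and 1.80. These differences were under the 4-fold bound, and each rests on 1 value per column. By the size rule 5, 2 and 3 of 7 Leydig cell markers were also higher in KIT cells at P7, P12 and P14. Of all 20889 genes, 31, 29 and 42 were higher. The markers summed to 1129 against 117 FPKM, 224 against 85.7 FPKM and 590 against 158 FPKM. At P12 Nr5a1 was lower in KIT cells (11.8 against 18.8 FPKM) and Star was nearly level (20.3 against 19.7 FPKM). The 7 markers summed to 3.13 FPKM in P7 ID4-GFP and 28.4 FPKM in P7 VASA THY1. The part of Leydig cells in the Adam15 and Adam22 differences was not tested. Adam23 stood at 6.88 FPKM in P0 OCT4-GFP, 16.8 in P0 THY1, 5.05 in P7 OCT4-GFP, 3.24 in P7 ID4-GFP, 4.76 in P7 VASA THY1, 2.17 in P7 THY1, 5.29 in P7 KIT, 3.66 in P12 THY1, 6.43 in P12 KIT, 7.53 in P14 THY1 and 8.17 in P14 KIT. Both genes had their lowest value in P7 THY1. The third gene of this kind, Adam11, stood between 0.183 FPKM in P12 THY1 and 1.35 FPKM in P14 KIT. Adam23 and Adam11 were also higher in the KIT than in the THY1 column of each age. At P7, P12 and P14 they differed by 0.99, 0.67 and 0.10 (Adam23) and by 0.27, 0.60 and 0.76 (Adam11) on log2(FPKM + 1). The part of Leydig cells in these differences was not tested either.

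Adam12, Adam19 and Adam8 were highest in P0 THY1. Of the 20 ADAM genes that reached 1 FPKM in any column, 5 were highest there, all in the broad set. That is 25%, against 25.1% of the 15458 genes that reached that level. Adam12, a protease gene of mesenchyme, stood at 0.530 FPKM in P0 OCT4-GFP, 7.95 in P0 THY1, 0.469 in P7 OCT4-GFP, 0.304 in P7 ID4-GFP, 1.05 in P7 VASA THY1, 2.90 in P7 THY1, 3.44 in P7 KIT, 2.76 in P12 THY1, 1.19 in P12 KIT, 4.89 in P14 THY1 and 1.36 in P14 KIT. Adam19, a relative of Adam12 needed for heart development, stood at 6.41 FPKM in P0 OCT4-GFP, 10.3 in P0 THY1, 1.95 in P7 OCT4-GFP, 1.23 in P7 ID4-GFP, 1.04 in P7 VASA THY1, 2.74 in P7 THY1, 2.21 in P7 KIT, 4.44 in P12 THY1, 1.79 in P12 KIT, 2.90 in P14 THY1 and 0.863 in P14 KIT. Adam8, a gene of leukocytes, stood at 1.83 FPKM in P0 OCT4-GFP, 5.44 in P0 THY1, 0.559 in P7 OCT4-GFP, 0.410 in P7 ID4-GFP, 0.282 in P7 VASA THY1, 3.65 in P7 THY1, 1.78 in P7 KIT, 1.80 in P12 THY1, 2.30 in P12 KIT, 0.236 in P14 THY1 and 0.457 in P14 KIT. Adam12 was lowest in the OCT4-GFP and ID4-GFP columns, at 0.530 FPKM or less. Its 1.05 FPKM in P7 VASA THY1 was close to the 1.19 FPKM of P12 KIT. Adam19, unlike Adam12, was also high in P0 OCT4-GFP, at 6.41 FPKM.

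**Figure D3:**
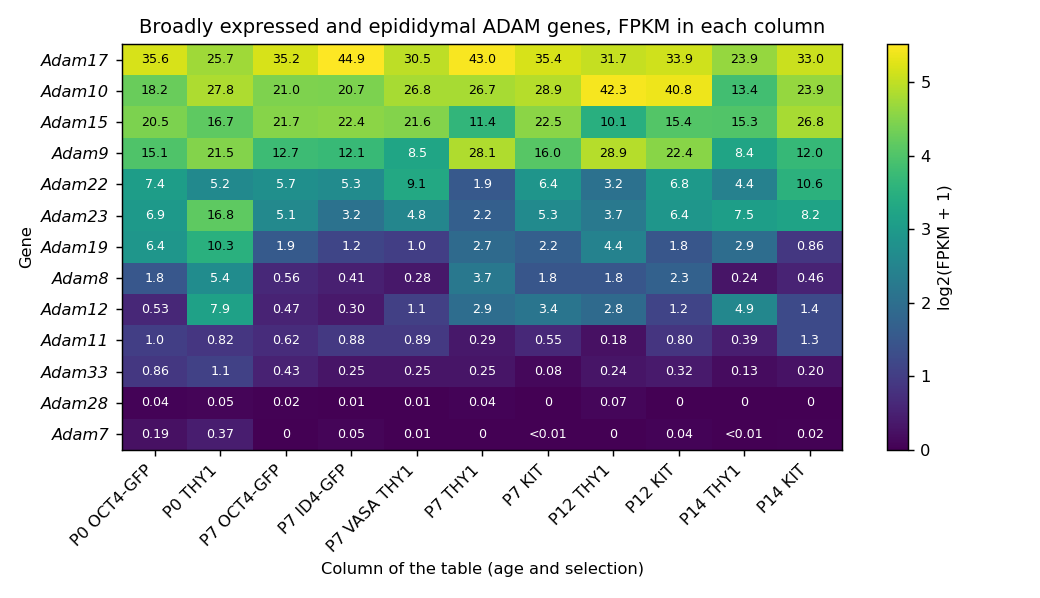
FPKM of the 11 broad set members and of Adam7 and Adam28 (rows, by median level) in the 11 columns, with the value printed in each cell and the colour giving log2(FPKM + 1). Adam17, Adam10, Adam15 and Adam9 are at 8.40 FPKM or more throughout, and Adam12, Adam19, Adam8, Adam23 and Adam33 have their highest value in P0 THY1. P0 THY1 was the highest column for 25.1% of all genes that reached 1 FPKM.

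The comparison of OCT4-GFP with THY1 cells at P0 asks how sorted germ cells differ from the bead-selected population. Adam12 was the only ADAM gene that passed the size rule, at -2.55 on log2(FPKM + 1), so 1 of 32 was lower in OCT4-GFP cells, against 5.61% of all genes. Among members that did not pass, Adam5 of the sperm set differed by -1.21, from 1.81 FPKM in P0 THY1 to 0.213 FPKM in P0 OCT4-GFP, and Adam23 and Adam8 differed by -1.18 each. The median difference was -0.48 over the 11 broad set members and -0.05 over all genes. Fibroblast markers summed to 79.2 FPKM in P0 OCT4-GFP and 6774 FPKM in P0 THY1, and 7 of 8 were lower by the size rule, as were 6 of 6 peritubular myoid, 5 of 7 endothelial, 4 of 7 Leydig and 4 of 8 Sertoli markers. None of 9 macrophage markers passed the rule, and they summed to 266 and 298 FPKM in these columns. No marker of these lists was at 0 in either column. The part of other cells in the Adam12, Adam23 and Adam8 levels was not tested.

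**Figure D4:**
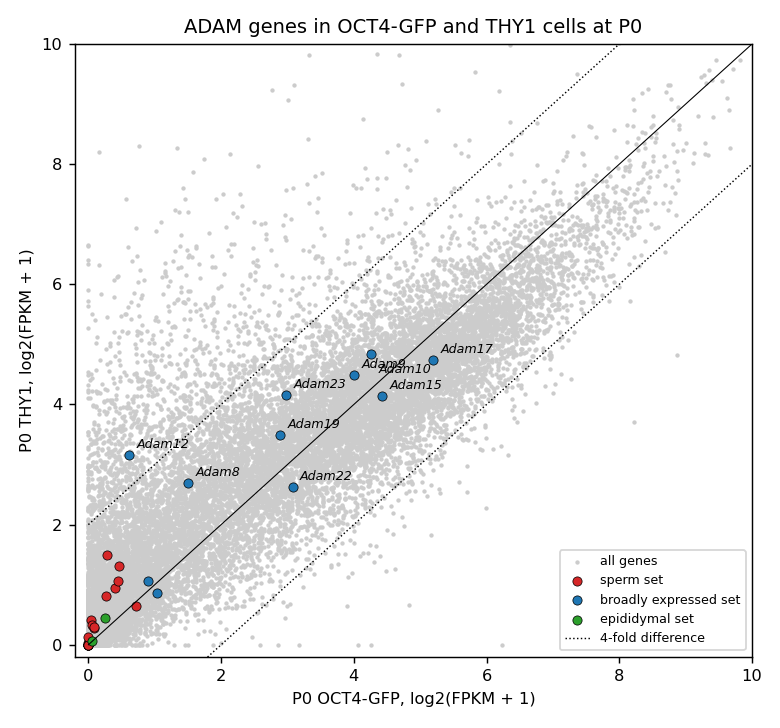
log2(FPKM + 1) in P0 OCT4-GFP (x axis) and P0 THY1 (y axis) for all 20889 genes in grey and the ADAM genes in colour by set; the solid line marks equal values and the dotted lines a 4-fold difference. Adam12 is the only ADAM gene outside the dotted lines, and the sperm set lies near the origin.

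In THY1 cells at P7 against P0, Adam23 was the only ADAM gene past the size rule, at -2.49 on log2(FPKM + 1), so 1 of 32 was lower, against 3.05% of all genes. Fibroblast markers were lower beside it, 7 of 8 by the rule, and summed to 318 FPKM at P7 and 6774 FPKM at P0. Peritubular myoid markers (5 of 6, with sums of 141 and 942 FPKM) and macrophage markers (5 of 9, with sums of 41.1 and 298 FPKM) were lower too. The part of these cells in the Adam23 difference was not tested. With P7 VASA THY1 in place of P7 THY1, a replacement chosen after seeing the data, Adam23 differed by -1.63 and did not pass, and 3 other ADAM genes were lower, Adam19 by -2.47, Adam8 by -2.33 and Adam12 by -2.13, against 5.9% of all genes. No ADAM gene passed the rule in KIT against THY1 cells at P7 and P12, where 0.359% and 0.239% of all genes did, or in KIT cells at P14 against P12, where 1.57% did. Adam2 stood at 4.09 FPKM in P14 KIT and 0.266 FPKM in P12 KIT, and missed the rule by its floor of 5 FPKM. None passed in the other comparisons at or before P12: THY1 at P12 against P7 (0.656% of all genes), KIT at P12 against P7 (0.551%), OCT4-GFP at P7 against P0 (0.129%), and ID4-GFP (3.19%) and VASA THY1 cells (1.74%) against THY1 cells at P7.

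The remaining members were low. Adam33, a gene of smooth muscle and fibroblasts, reached 1.08 FPKM in P0 THY1 and stood at 0.0848 FPKM in P7 KIT. Adam7 of the epididymis reached 0.367 FPKM in P0 THY1, and Adam28 reached 0.0695 FPKM in P12 THY1. In all, 20 of 32 ADAM genes reached 1 FPKM in at least 1 column and 16 reached 5 FPKM.

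Sperm ADAM proteins depend on chaperones, processing enzymes and membrane partners, of which 13 of 14 listed genes were in the table. By the size rule 6 of 13 were higher in P14 THY1 than in P12 THY1, against 3.35% of all genes, and none was lower, against 2.79%, with a median difference of 0.54 on log2(FPKM + 1), against -0.01 over all genes. Clgn, which encodes the chaperone calmegin needed for fertilin assembly, had 160 FPKM at P14 and 10.2 FPKM at P12. Cmtm2a, a membrane protein gene needed for ADAM3 on sperm, had 151 FPKM at P14 and 0.0521 FPKM at P12. Cmtm2b, its relative, had 88.0 and 0.0694 FPKM. The surface protein gene Tex101 had 851 FPKM at P14 and 210 FPKM at P12, and its partner gene Ly6k had 222 and 28.2 FPKM. Pcsk4, the proprotein convertase gene of germ cells, had 6.63 and 0.660 FPKM.

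In P14 KIT against P14 THY1, 3 of these 13 genes were lower, against 3.16% of all genes, namely Clgn (16.9 FPKM), Cmtm2a (2.53 FPKM) and Cmtm2b (1.41 FPKM). The list's median difference was -0.46 and that of all genes 0.00. Cmtm2a and Cmtm2b had 1.68% and 1.61% of their P14 THY1 level in P14 KIT, and Clgn had 10.6%. Tex101 and Ly6k did not follow the 7 ADAM genes: they stood at 790 and 162 FPKM in P14 KIT, and Tex101 was at 69.4 FPKM or more in every column. Pdilt and Calr3, chaperone genes that act on ADAM3, did not pass the size rule at P14 against P12 in THY1 cells: Pdilt stayed at 0.215 FPKM or less in all columns, and Calr3 stood at 2.16 FPKM in P14 THY1, 2.65 FPKM in P12 THY1 and 6.06 FPKM in P14 KIT.

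**Figure D5:**
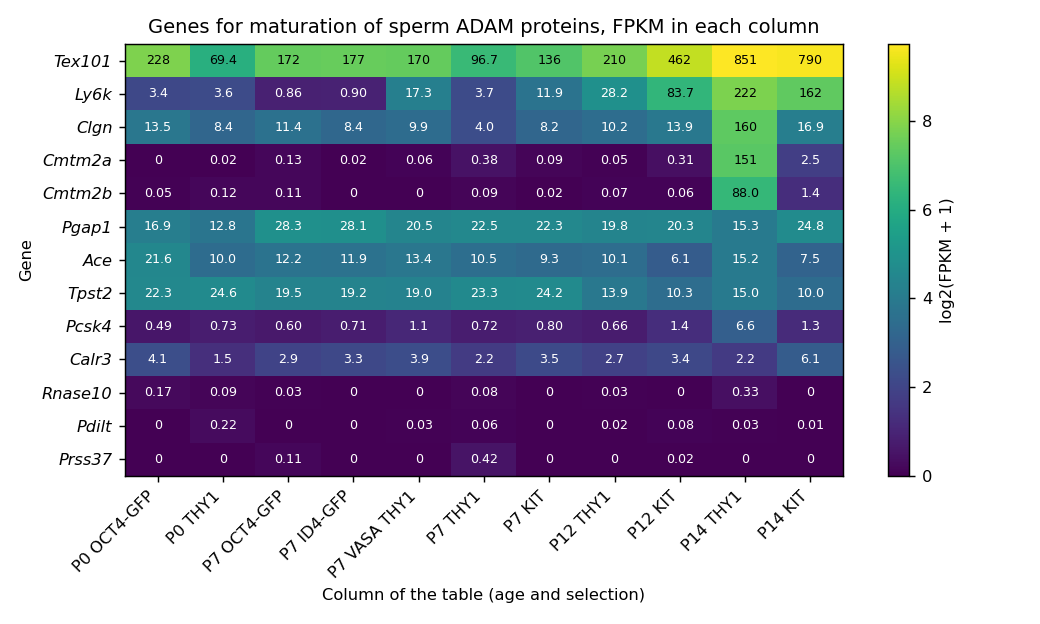
FPKM of 13 genes for the maturation of sperm ADAM proteins (rows, by P14 THY1 level) in the 11 columns, with the value printed in each cell and the colour giving log2(FPKM + 1). Cmtm2a and Cmtm2b are at 0.378 FPKM or less before P14 and at 151 and 88.0 FPKM in P14 THY1, whereas Tex101 is at 69.4 FPKM or more in every column.

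Partners of ADAM10 and ADAM17 and general inhibitors of metalloproteases formed a list of 16 genes. In THY1 cells at P14 against P12, 3 of 16 were lower, against 2.79% of all genes, and none was higher, against 3.35%. The median difference was -0.40, against -0.01 over all genes. The 3 were the inhibitor genes Timp1 (8.21 against 43.5 FPKM) and Timp3 (8.23 against 54.0 FPKM), and Tspan17, a tetraspanin gene (2.21 against 15.2 FPKM). Timp2 was the 1 of 16 that passed the rule in THY1 cells at P7 against P0, at 9.94 against 71.2 FPKM, where 3.05% of all genes were lower. At P14 none of the 16 passed between KIT and THY1 cells.

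Of 16 genes for proteins shed by ADAM10 or ADAM17, 3 were lower in THY1 cells at P14 than at P12, against 2.79% of all genes, and none was higher, against 3.35%. The median difference was -0.92, against -0.01 over all genes. The 3 genes were Kitl, the KIT ligand gene (10.3 against 83.9 FPKM), Hbegf, of the EGF family (1.74 against 16.0 FPKM), and Cdh2, the N-cadherin gene (7.76 against 49.2 FPKM). Kit itself, the selection marker, was the only listed substrate gene past the rule between KIT and THY1 cells at P14, at 103 against 24.1 FPKM, where 0.201% of all genes were higher. None of the 16 passed in THY1 cells at P7 against P0. Kitl, a Sertoli cell gene, and the Sertoli markers were lower in the same P14 column, and their part in these list counts was not tested.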

How the data were processed

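The submitters' processing notes name CASAVA, TopHat2 2.0.9, Cufflinks 2.1.1 and the mouse build mm9, without roles, annotation or the way replicates were combined; per the labels' protocols, ribosomal RNA was depleted and libraries were directional. The authors deposited FPKM for 20889 genes in 11 columns that stand for 16 RNA libraries. The 8 bisulfite and 6 chromatin samples were not analysed here. From the deposited FPKM, log2(FPKM + 1), its differences in 12 comparisons and the size rule (4-fold, 5 FPKM in the higher column) were computed with Python 3.11.15, numpy 2.4.6 and pandas 2.3.3; windows were aligned with Biopython 1.88, and plots drawn with matplotlib 3.10.9. The code of the size rule was run on made-up values with differences set in advance. Its outcome followed from the rule, so it gives no error rate. The limma test planned for replicate columns could not be run with 1 value per group, and the protein motif was not analysed here. Members, sets and lists were chosen with earlier results of these data known. Named are members at 5 FPKM or more in a column, Adam1a, and up to 6 genes of each partner list past the rule. Pdilt, Calr3, Ldhc, Hspa2, the spermatid markers named and the low members singled out were chosen after their values were seen. All 32 symbols are current in RefSeq (GRCm38.p6), used for names, order and promoter letters.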

Additional observations from a re-analysis of the deposited data

How the results depend on the processing

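No paired analysis was possible because the table holds 1 column per group, and for the same reason no replicate could be left out. The counts of 7 ADAM genes in P14 THY1 against P12 THY1 and in P14 KIT against P14 THY1 were 9 (7 higher and 2 lower) and 8 (7 lower and 1 higher) at 2-fold, 5 and 5 at 8-fold, and 7 with a pseudocount of 0.1, a floor of 1 FPKM, no floor and quantile normalization. A 2-fold rule gave 4 in place of 1 in THY1 cells at P7 against P0, 3 in place of 1 in OCT4-GFP against THY1 cells at P0, 1 in place of 0 in KIT against THY1 cells at P7 and in OCT4-GFP cells at P7 against P0, and 2 in place of 0 in ID4-GFP and in VASA THY1 against THY1 cells at P7. An 8-fold rule gave 0 in place of 1 in THY1 cells at P7 against P0 and in OCT4-GFP against THY1 cells at P0. In KIT cells at P14 against P12, a floor of 1 FPKM, no floor and quantile normalization each gave 1 in place of 0. A pseudocount of 0.1 gave 1 in place of 0 in VASA THY1 against THY1 cells at P7. The P7 VASA THY1 column in place of P7 THY1, chosen after seeing the data, gave 3 in place of 1 in THY1 cells at P7 against P0. Apart from the changed bounds and floors, the cause was not tested. Except for the VASA THY1 replacement, the share of all genes was not computed under these other settings. Their counts therefore have no general rate beside them. Quantile normalization shifted the median of genes at 1 FPKM or more in both columns by 0.19 in THY1 cells at P7 against P0, by 0.21 in OCT4-GFP against THY1 cells at P0 and by 0.10 in KIT cells at P14 against P12 (log2), and reversed no ADAM gene past the rule. Without counts, the depth behind values under 1 FPKM is unknown.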
